A study of Mus musculus with 12 samples.

Results

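The proteasome subunit genes of the mouse left ventricle were taken as all protein-coding genes of the expression table whose symbol is Psma, Psmb, Psmc, Psmd or Psme followed by a number, and 43 of the 18079 genes in the table met this definition. They were examined in 12 C57BL/6 mice from 4 groups of 3. DMSO+Sham mice had a sham operation and daily DMSO, Hispidulin+Sham mice a sham operation and daily hispidulin, DMSO+AB mice aortic banding and DMSO, and Hispidulin+AB mice aortic banding and hispidulin. Aortic banding (AB) narrows the aorta with a suture and so loads the ventricle with pressure, and hispidulin, a plant flavone, was given by intraperitoneal injection at 20 mg/kg/day from the day before the operation until the hearts were taken 4 weeks later, at an age of 12 weeks. All groups therefore shared a thoracic operation and daily injections, and the samples were pieces of whole left ventricular muscle, so that fewer cells of a type and less RNA per cell cannot be told apart.

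The proteasome is the large protease that degrades proteins marked with ubiquitin. Its core particle (20S) is a barrel of alpha subunits (Psma), which gate the entrance, and beta subunits (Psmb), of which Psmb5, Psmb6 and Psmb7 carry the standard proteolytic sites. In leukocytes, and in many other cells exposed to interferon, these sites are replaced by Psmb8, Psmb9 and Psmb10, which gives the immunoproteasome and changes the peptides made for display on class I molecules. The regulatory particle (19S) binds and unfolds substrates with a ring of ATPases (Psmc) and non-ATPase subunits (Psmd), while Psme1 to Psme4 encode activators that bind the core without the regulatory particle. In heart muscle, the proteasome is best known for the turnover of sarcomere and signalling proteins.

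The values are FPKM, the fragments of a gene scaled to the length of its transcript and to all fragments mapped, so that levels could be compared between genes. Changes were tested with limma on log2(FPKM + 1) over all 11664 genes that reached an FPKM of 1 in at least 3 of 12 mice, with Benjamini-Hochberg adjustment over all of them, and an adjusted p under 0.05 was called. Of the 43 subunit genes, 41 passed this filter. The read depth is unknown, as the files hold no counts. In every mouse the 5 ventricular myocyte genes checked (Myh6, Myl2, Myl3, Tnnt2 and Tnni3) were abundant, with a sum of 33283 to 42962 FPKM. The atrial genes Myl7, Myl4 and Sln had their highest sums in Hispidulin+Sham 3 (774 FPKM), DMSO+AB 2 (172 FPKM) and Hispidulin+AB 3 (91.0 FPKM), so these 3 samples held the most atrial transcripts. DMSO+Sham 3 had the highest level of 17 of the 41 subunit genes, DMSO+AB 2 of 11 and DMSO+AB 3 of 10, and DMSO+AB 3 also had the lowest level of 8. The median deviation of the subunit genes from their means was 0.12 on the log2 scale in DMSO+Sham 3 and 0.13 in DMSO+AB 2. Over all genes tested it was also above 0 in these mice, at 0.0497 and 0.0408. DMSO+Sham 3 also had the highest level of the interferon-response gene Tap1 (18.3 FPKM, against 4.05 to 11.5 in the other mice). Its 13 leukocyte markers summed to 373 FPKM, against 178 to 351 in the other mice, a sum made up largely by Lyz2 and C1qa, and 5 of the 13 (Adgre1, C1qa, Fcgr1, Itgam and Ptprc) were highest in this mouse. Of these, the myeloid integrin gene Itgam was at 18.2 FPKM, against 1.26 to 3.41 in the other mice, and the Fc receptor gene Fcgr1 at 13.5 FPKM, against 0.5 to 2.09. The macrophage gene Adgre1 was at 11.1 FPKM, against 2.71 to 5.65. The T cell and B cell genes did not set this mouse apart. Cd3e and Ms4a1 were at 0 in it, as in some other mice. Cd3g was at 0.16, Cd8a at 0.16 and Cd79a at 0.31 FPKM, each within the range of the other mice.

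Together the subunit genes made up between 0.561% and 0.68% of the summed FPKM of a mouse. With DMSO the share was 0.612% ± 0.0591 (SD, n = 3) after the sham operation and 0.609% ± 0.0257 after banding. With hispidulin it was 0.581% ± 0.0242 and 0.594% ± 0.006, and the 4 groups overlapped. The standard core was the most abundant layer. The 7 alpha subunit genes had a median level of 88.1 FPKM, from Psma5 at 49.4 to Psma6 at 137. The 4 standard beta genes without a proteolytic site had a median of 129 FPKM, from Psmb2 at 96.8 to Psmb4 at 164. The 3 with a standard site ranged from Psmb6 at 122 FPKM to Psmb7, which at 221 FPKM was the most abundant of all 43.

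The genes of the regulatory particle spanned similar to lower levels. The 6 ATPase genes had a median of 87.3 FPKM, from Psmc6 at 55.7 to Psmc3 at 145, and the 11 non-ATPase genes a median of 66.0 FPKM, from the deubiquitinase Psmd14 at 29.5 to the ubiquitin receptor Psmd4 at 96.0. Psmd5, Psmd9 and Psmd10 are chaperones that assemble the regulatory particle and do not stay in it, and their levels were lower throughout, from Psmd10 at 7.39 to Psmd5 at 10.2 FPKM. Among the activators, Psme1 was at 123 FPKM and Psme3, which encodes the nuclear activator, at 35.3. The read layout (50 bases, single-end) leaves some of these values uncertain where the annotation has an overlapping gene. Psme1 overlaps Emc9, Psmd10 overlaps Atg4a and Psme4 overlaps Erlec1, and Psme2 has a near copy in the table, Psme2b, at 2.28 FPKM.

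The tissue-restricted subunits were near the bottom of the scale. Psma8, the alpha subunit of the testis, ranged from 0.19 to 0.90 FPKM over the 12 mice. Psmb11, the catalytic subunit of the thymus, ranged from 0.10 to 0.34 FPKM. Neither passed the filter, and neither was tested. The immunoproteasome genes were below the standard core genes but well above these, with means over 12 mice of 9.50 FPKM for Psmb9, 14.7 for Psmb8 and 44.8 for Psmb10. The ratio of each to the standard gene it replaces was thus below 1 in every mouse: between 0.0712 and 0.303 for Psmb8 to Psmb5, between 0.0509 and 0.148 for Psmb9 to Psmb6, and between 0.149 and 0.278 for Psmb10 to Psmb7.

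**Figure D1:**
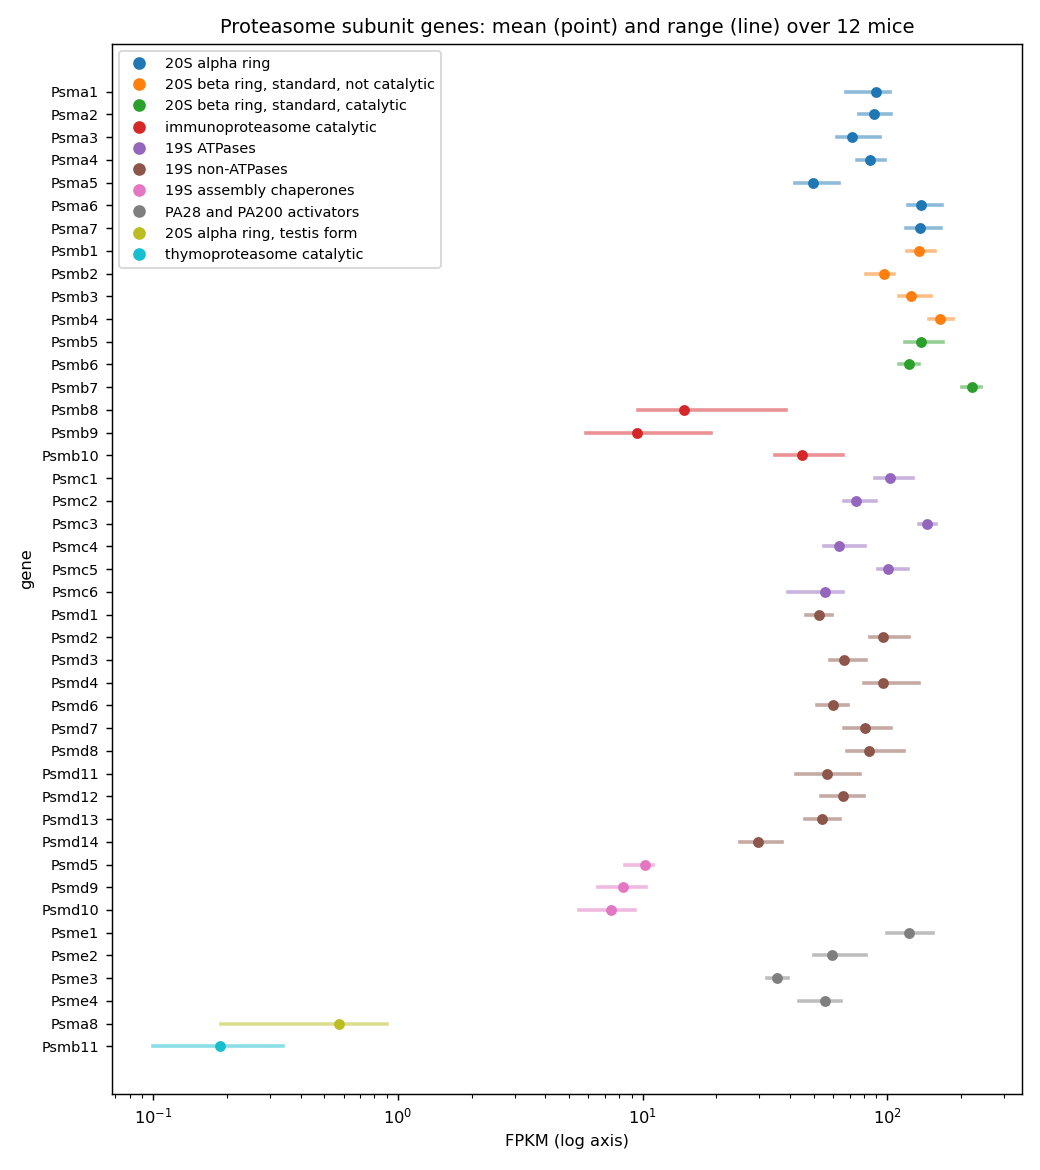
Mean FPKM of each of the 43 subunit genes over 12 mice (point) with the lowest and highest mouse (line), on a log axis, coloured by class. Psmb7 is the most abundant at 221 FPKM, the 3 immunoproteasome genes lie below the standard core genes, and Psma8 and Psmb11 stay under 1 FPKM.

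Most subunit genes varied little between mice. The median coefficient of variation over the 12 mice was 10.3% for the 41 genes tested, against 15.8% for all 11664 genes and 11.7% for the 641 genes whose mean level lay between the quartiles of the subunit genes, which are described here without a test. It was lowest for the standard catalytic genes, at 6.04%, and for the other standard beta genes, at 7.05%. The immunoproteasome genes varied most, at a median of 41.1% with all mice and 25.2% without DMSO+Sham 3. Without that mouse Psmb8 went from 54.7% to 25.2% and Psmb9 from 41.1% to 30.4%, while Psmb10 was at 22.3% with it and 23.2% without it.

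**Figure D2:**
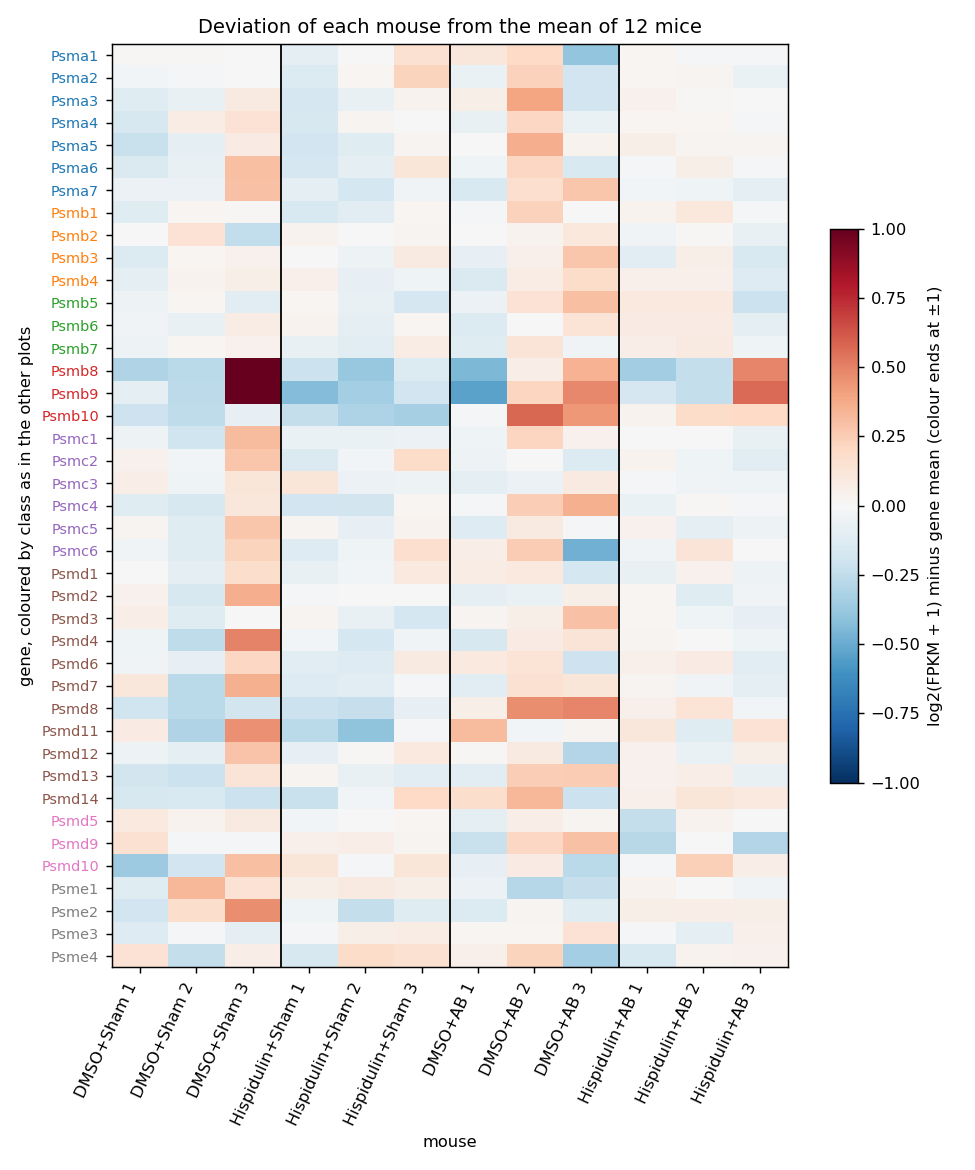
Deviation of each mouse from the mean of 12 mice in log2(FPKM + 1), for the 41 subunit genes tested (vertical axis) in each mouse (horizontal axis), red for above and blue for below the mean. The strongest colours are those of Psmb8 and Psmb9 in DMSO+Sham 3, and Psmb10 and Psmd8 are the genes whose AB mice all lie above their Sham mice.

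Whether pressure overload changed the subunit genes was asked first over both treatments, with the 6 AB mice against the 6 Sham mice. Psmb10 and Psmd8 rose, and no other subunit gene passed. This comparison uses the same mice as those within each treatment that follow it. Psmb10 encodes the trypsin-like site of the immunoproteasome, and Psmd8 encodes the lid subunit Rpn12 of the regulatory particle. These 2 of 41 genes (4.88%) compare with 7.39% of all genes tested, so the count was not above the background. At an unadjusted p under 0.05 there were 3, the other one being Psme1 (7.32%, against 23.3% of all genes). Psmb10 and Psmd8 were also the 2 genes higher in all 6 AB mice than in all 6 Sham mice, against 2.15% of all genes, and 0 were lower, against 2.8%. The median log2 fold change was 0.02 over the 41 subunit genes and −0.03 over all genes.

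Psmb10 was at 37.8, 36.7 and 41.5 FPKM in DMSO+Sham and at 37.1, 35.2 and 34.6 FPKM in Hispidulin+Sham. It was at 43.5, 65.6 and 59.7 FPKM in DMSO+AB and at 45.1, 50.1 and 50.6 FPKM in Hispidulin+AB. Every AB mouse was thus above every Sham mouse, though DMSO+AB 1 exceeded DMSO+Sham 3 by little. The log2 fold change over both treatments was 0.47 ± 0.09 (SE; adjusted p = 0.0131, limma), a 1.39-fold rise on the scale of FPKM + 1. Relative to Psmb7, whose site it replaces, the Psmb10 level was 0.170 ± 0.0121 (SD, n = 6) in Sham mice and 0.235 ± 0.0338 in AB mice. Psmb7 itself was at 218 FPKM in Sham and 223 FPKM in AB mice, so this ratio restates the Psmb10 values.

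Psmd8 was at 71.8, 68.6 and 72.8 FPKM in DMSO+Sham and at 71.0, 70.5 and 78.2 FPKM in Hispidulin+Sham. It was at 85.9, 115 and 117 FPKM in DMSO+AB and at 85.5, 91.2 and 80.9 FPKM in Hispidulin+AB. The lowest AB mouse, Hispidulin+AB 3, lay just above the highest Sham mouse, Hispidulin+Sham 3, and the highest values were those of DMSO+AB 2 and 3. The log2 fold change over both treatments was 0.39 ± 0.08 (SE; adjusted p = 0.0163, limma), or 1.31-fold.

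Both calls over both treatments held with any 1 mouse left out, with adjusted p of 0.00093 to 0.0414 for Psmb10 and of 0.00151 to 0.0493 for Psmd8. With the series of the numbers in the sample names as a covariate, Psmb10 passed (adjusted p = 0.043) and Psmd8 did not (log2 fold change 0.39, adjusted p = 0.0527). With the 3 mice of highest atrial levels left out together, the log2 fold changes were 0.39 for Psmb10 and 0.40 for Psmd8 and neither passed (adjusted p = 0.156 and 0.124, limma). With DMSO+Sham 3 and Hispidulin+AB 3 left out together, both passed (adjusted p = 0.0335 and 0.0349). The sum of the leukocyte markers was 178 to 373 FPKM in Sham and 223 to 351 FPKM in AB mice, and the T cell genes Cd3e, Cd3g and Cd8a did not pass the filter, with Cd3e at 0 to 0.11 FPKM. The fibroblast markers Col1a1, Dcn and Pdgfra summed to 281 to 378 FPKM in Sham and 292 to 552 FPKM in AB mice, and Col1a1 rose with a log2 fold change of 1.42 (adjusted p = 0.0236). The part of these cells in the rise of Psmb10 and Psmd8 was not tested.

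**Figure D3:**
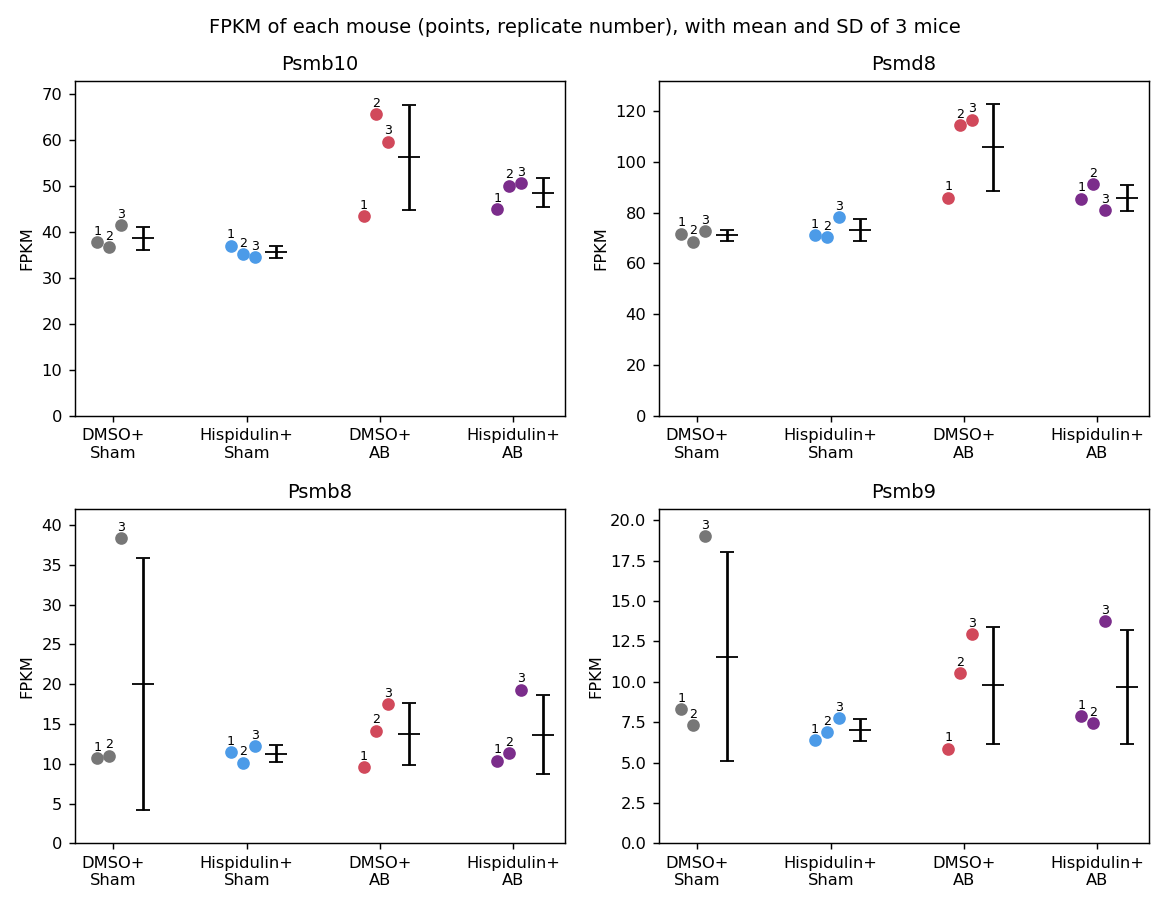
FPKM of Psmb10, Psmd8, Psmb8 and Psmb9 in each mouse (points, with the replicate number) and the mean and SD of each group of 3. For Psmb10 and Psmd8 every AB mouse is above every Sham mouse, while for Psmb8 and Psmb9 the groups overlap and DMSO+Sham 3 is the highest mouse.

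The sequence around the start of each of these 2 genes and of Psmb8 and Psmb9 is printed here, so that the gene pair that differed by operation and the gene pair that varied together (below) can be compared. Each window runs from 250 bases before to 50 bases after the start in the RefSeq annotation of GRCm38.p6, which may differ from the build behind the FPKM, and is written 5′ to 3′ along the gene. The windows are chr8:105938343-105938642 on the minus strand, chr7:29180624-29180923 on the minus strand, chr17:34197945-34198244 on the plus strand and chr17:34187281-34187580 on the minus strand. Capitals mark a match to 1 of 4 motifs searched on both strands: the core of the antioxidant response element (TGACNNNGC), which NFE2L1 and NFE2L2 bind, the core of the interferon-stimulated response element (GAAA, any 2 bases, GAAA), the STAT site (TTCNNNGAA) and the CCAAT box (CCAAT).
Psmb10: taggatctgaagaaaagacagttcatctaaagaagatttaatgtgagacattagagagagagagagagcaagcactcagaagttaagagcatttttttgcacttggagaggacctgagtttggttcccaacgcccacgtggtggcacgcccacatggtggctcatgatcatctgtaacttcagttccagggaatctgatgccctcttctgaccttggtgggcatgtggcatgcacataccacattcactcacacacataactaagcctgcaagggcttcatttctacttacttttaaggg
Psmd8: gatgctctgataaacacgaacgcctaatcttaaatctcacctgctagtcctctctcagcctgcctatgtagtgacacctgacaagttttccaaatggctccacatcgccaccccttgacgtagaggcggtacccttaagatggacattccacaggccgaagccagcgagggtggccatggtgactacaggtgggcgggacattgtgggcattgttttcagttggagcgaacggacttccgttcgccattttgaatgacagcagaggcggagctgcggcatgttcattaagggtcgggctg
Psmb8: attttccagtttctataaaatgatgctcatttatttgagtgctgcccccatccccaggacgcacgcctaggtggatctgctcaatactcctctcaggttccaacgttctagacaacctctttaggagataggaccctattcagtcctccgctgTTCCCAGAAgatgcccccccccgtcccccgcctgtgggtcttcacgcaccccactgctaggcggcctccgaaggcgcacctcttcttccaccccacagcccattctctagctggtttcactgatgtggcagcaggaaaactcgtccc
Psmb9: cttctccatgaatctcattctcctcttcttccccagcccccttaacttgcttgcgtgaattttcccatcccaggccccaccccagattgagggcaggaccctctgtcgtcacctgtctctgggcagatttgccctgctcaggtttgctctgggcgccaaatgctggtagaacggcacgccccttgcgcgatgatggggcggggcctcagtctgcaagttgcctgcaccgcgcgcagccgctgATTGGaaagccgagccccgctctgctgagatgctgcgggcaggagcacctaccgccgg
Neither the Psmb10 nor the Psmd8 window held any of the 4 motifs. The Psmb8 window held a STAT site at bases 154 to 162 and the Psmb9 window a CCAAT box, read on the opposite strand as ATTGG, at bases 243 to 247. The class I peptide transporter gene Tap1 starts within the Psmb9 window, in the opposite direction. Of the 43 subunit genes, 36 had a window. The antioxidant core was in 6 of them (Psmb5, Psmb6, Psmc6, Psmd12, Psmd9 and Psme4), or 16.7%, against 14.0% of all genes with a window. The interferon core was in Psmb3, Psmd4, Psmd9 and Psme1 (11.1%, against 3.99%), the STAT site in Psmb8 and Psmd2 (5.56%, against 9.55%) and the CCAAT box in 14 (38.9%, against 41.1%). These matches describe the letters of the windows only, and the motifs can overlap each other.

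In the vehicle-treated mice alone, DMSO+AB against DMSO+Sham, the same 2 genes passed. The share called was 4.88% of the subunit genes and 5.21% of all genes, and 7.32% and 20.4% had an unadjusted p under 0.05. The log2 fold change of Psmd8 was 0.55 ± 0.12 (SE; adjusted p = 0.0224, limma), and that of Psmb10 was 0.51 ± 0.13 (adjusted p = 0.0473). These calls were near the threshold. Psmb10 passed without DMSO+AB 1 and with no other mouse left out (adjusted p of 0.0568 to 0.165 in those 11 fits, 6 of which left out a hispidulin mouse that is not in the comparison and kept the log2 fold change at 0.51), and Psmd8 did not pass without DMSO+AB 2 (adjusted p = 0.091), DMSO+AB 3 (0.0726) or DMSO+Sham 1 (0.0794). The log2 fold changes stayed between 0.39 and 0.68 for Psmb10 and between 0.48 and 0.70 for Psmd8 in the fits with 1 mouse left out. By groups that did not overlap, 3 subunit genes were higher (Psmb10, Psmd8 and Psme3), or 7.32% against 7.18% of all genes, and none was lower, against 10.8% of all genes.

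The standard core showed small values. The 14 standard core genes had a median log2 fold change of 0.04 between DMSO+AB and DMSO+Sham, with a range from −0.03 to 0.22, and limma called 0 of them, with 0 at an unadjusted p under 0.05. Psmb5, the chymotrypsin-like site, was at 132, 138 and 126 FPKM in DMSO+Sham and at 131, 151 and 168 FPKM in DMSO+AB. Its log2 fold change of 0.18 did not pass (0.0904 without DMSO+AB 3 and 0.27 without DMSO+AB 1), and the groups overlapped. Psmb6, the caspase-like site, was at 121 ± 6.55 (SD, n = 3) in DMSO+Sham and 123 ± 11.7 FPKM in DMSO+AB, and Psmb7, the trypsin-like site, at 221 ± 7.17 and 219 ± 20.0 FPKM. The 6 ATPase genes lay between −0.16 and 0.25, and the other 10 non-ATPase genes had lower values than Psmd8. The next was Psmd14, at 26.0, 26.3 and 25.1 FPKM in DMSO+Sham and at 33.3, 37.2 and 25.1 FPKM in DMSO+AB, with a log2 fold change of 0.28 that did not pass (0.16 without DMSO+AB 2 and 0.43 without DMSO+AB 3).

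The lowest log2 fold changes in vehicle-treated mice were those of Psme1, Psmb8 and Psme2, and limma called 0 of them, with Psme1 alone at an unadjusted p under 0.05. The value of Psmb8 was −0.30 with all mice and 0.27 without DMSO+Sham 3. Psme1 and Psme2 encode the subunits of the PA28 activator. Psme1 was at 112, 154 and 135 FPKM in DMSO+Sham and at 117, 99.7 and 104 FPKM in DMSO+AB. Of the DMSO+AB mice, only DMSO+AB 1 reached the range of the controls. The log2 fold change was −0.31 ± 0.11 (SE; adjusted p = 0.13, limma), and over both treatments it was −0.19 (adjusted p = 0.164). Without DMSO+Sham 2, which held the highest value, the log2 fold change in vehicle-treated mice was −0.21, and with array weights the values were −0.18 and −0.12. Psme2 was at 51.5, 66.8 and 81.6 FPKM in DMSO+Sham and at 53.7, 60.0 and 54.1 FPKM in DMSO+AB. Its log2 fold change was −0.23, with overlapping groups, and −0.07 without DMSO+Sham 3, which held the highest value.

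**Figure D4:**
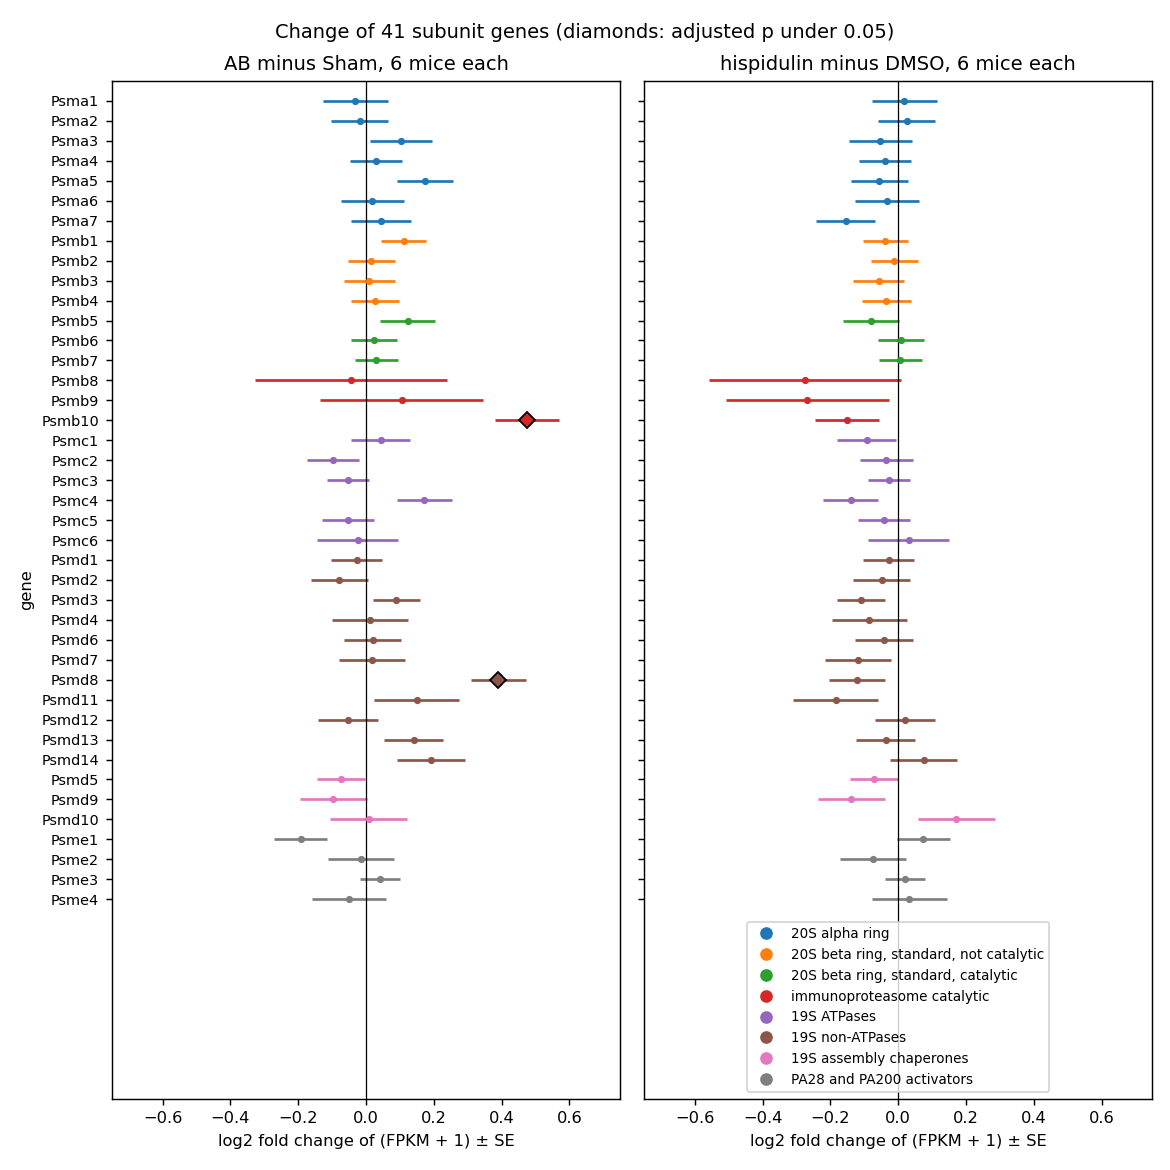
Log2 fold change of FPKM + 1 with its SE for each of the 41 subunit genes, for 6 AB against 6 Sham mice (left) and 6 hispidulin against 6 DMSO mice (right), coloured by class, with diamonds for an adjusted p under 0.05. Psmb10 and Psmd8 are the 2 diamonds on the left, and there is none on the right.

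Psmb8 and Psmb9, the other immunoproteasome sites, were both highest in DMSO+Sham 3 and next highest in Hispidulin+AB 3. Psmb8 was at 10.8, 11.0 and 38.3 FPKM in DMSO+Sham and at 11.5, 10.2 and 12.2 FPKM in Hispidulin+Sham. It was at 9.61, 14.2 and 17.5 FPKM in DMSO+AB and at 10.4, 11.3 and 19.3 FPKM in Hispidulin+AB. DMSO+Sham 3 was far above all others, and the 4 groups overlapped. This was the mouse with the high Itgam, Fcgr1 and Adgre1 levels given above, and their part in its Psmb8 and Psmb9 levels was not tested. Psmb9 was at 8.32, 7.32 and 19.02 FPKM in DMSO+Sham and at 6.38, 6.87 and 7.74 FPKM in Hispidulin+Sham. It was at 5.86, 10.5 and 12.9 FPKM in DMSO+AB mice and at 7.86, 7.45 and 13.8 FPKM in those of Hispidulin+AB, and again the groups overlapped.

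The fold changes of these genes depended on single mice. Between DMSO+AB and DMSO+Sham the log2 fold change of Psmb8 was −0.30 with all mice and 0.27 without DMSO+Sham 3, and that of Psmb9 was −0.16 with all mice and 0.23 without it (0.13 without DMSO+AB 1). Between Hispidulin+Sham and DMSO+Sham, Psmb8 was at −0.53 with all mice and 0.04 without DMSO+Sham 3, and Psmb9 at −0.54 and −0.14. None of these passed.

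The levels of the pair moved together from mouse to mouse. Over 12 mice the Pearson correlation of log2(FPKM + 1) of Psmb8 and Psmb9 was 0.944 (permutation p = 4e-05, 0.00056 after Benjamini-Hochberg adjustment over 14 gene pairs), and Spearman's rho was 0.776 (permutation p = 0.0042, adjusted 0.035). Without the 2 mice farthest from the median, DMSO+Sham 3 and Hispidulin+AB 3, r was 0.905, and on deviations from the group means it was 0.951. Psmb9 and its neighbour Tap1 gave r = 0.914 (permutation p = 0.00029, adjusted 0.002) and rho = 0.765 (permutation p = 0.005, adjusted 0.035), with 0.753 without those mice. The other 12 pairs did not pass, with adjusted p of 0.15 or more for r and of 0.21 or more for rho. Psmb10 was among them, with r = 0.266 against Psmb8 and 0.445 against Psmb9, and 0.67 and 0.717 without DMSO+Sham 3 and Hispidulin+AB 3, as were the standard and immune partners Psmb5 and Psmb8 (r = −0.136). Psmb9 and the pan-leukocyte gene Ptprc gave r = 0.489, and −0.231 without the same 2 mice. All genes of a mouse share 1 library, and its depth and makeup.

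**Figure D5:**
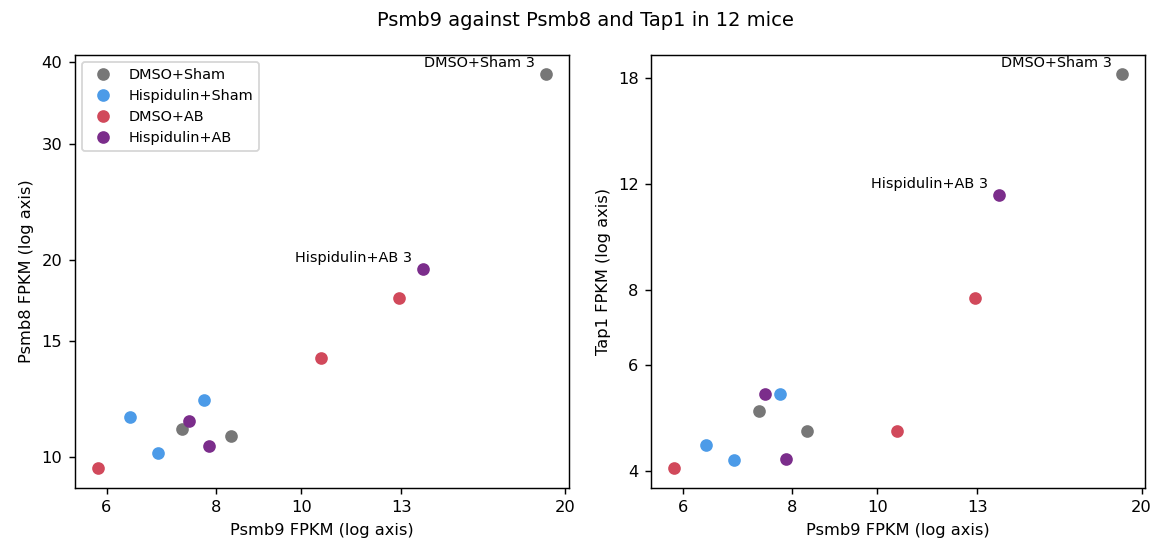
Psmb9 FPKM (horizontal log axis) against Psmb8 and Tap1 FPKM (vertical log axes) in 12 mice, coloured by group. Mice of every group lie along 1 line for Psmb8 (r = 0.944 on the log2 scale), with DMSO+Sham 3 and Hispidulin+AB 3 at its upper end.

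In the hispidulin-treated mice, Hispidulin+AB against Hispidulin+Sham, 0 of 41 subunit genes passed in limma, as did 0.0% of all genes. At an unadjusted p under 0.05 there was 1 subunit gene (2.44%, against 7.26% of all genes), Psmb10, with a log2 fold change of 0.44 ± 0.13 (SE; adjusted p = 0.489). The next by size were Psmb9 at 0.37 and Psmd11, a lid subunit, at 0.27 (0.12 and 0.23 without Hispidulin+AB 3), and the lowest were Psmd9 at −0.24, Psme4 at −0.09 and Psmb3 at −0.08. With 1 mouse left out, Psmd9 ranged from −0.34 to −0.19, Psme4 from −0.20 (without Hispidulin+Sham 1) to −0.0209 (without Hispidulin+AB 1) and Psmb3 from −0.14 (without Hispidulin+AB 2) to −0.0371 (without Hispidulin+AB 3). Groups did not overlap for Psmb10, Psmd8 and Psme2 upward, 7.32% of the subunit genes against 9.14% of all genes, nor for Psme1 and Psmd9 downward, 4.88% against 11.8%. Psmd8 had a log2 fold change of 0.23 (adjusted p = 0.731).

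The direct comparison of the banded hearts, Hispidulin+AB against DMSO+AB, asked whether hispidulin altered the levels under pressure overload. Again 0 of 41 subunit genes passed, and 0.0% of all genes. The lowest value was that of Psmd8, at −0.29 ± 0.12 (SE; unadjusted p = 0.03, adjusted p = 0.996), the 1 subunit gene with an unadjusted p under 0.05 (2.44%, against 3.1% of all genes). Psmd9 followed at −0.28 and Psmc4, an ATPase, at −0.22, and the highest were Psme1 at 0.20, Psmd10 at 0.18 and Psme2 at 0.14. Several of these values moved with 1 mouse left out. Without DMSO+AB 3, Psmd9 was at −0.18, Psmc4 at −0.14 and Psmd10 at 0.0941, while without DMSO+AB 1 Psmd9 was at −0.44. For Psmd8, DMSO+AB 1 lay within the range of the Hispidulin+AB mice and DMSO+AB 2 and 3 above it, so the groups overlapped. Without the 3 mice of highest atrial levels, DMSO+AB 2 among them, its value was −0.18. Groups did not overlap for Psme1 and Psme2 upward (4.88%, against 4.23% of all genes) and for Psmd3 downward (2.44%, against 3.65%).

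The change with AB was then compared between hispidulin and DMSO by the interaction term. It was −0.33 for Psmd8 (−0.17 without the 3 mice of highest atrial levels) and −0.07 for Psmb10 (0.045 without DMSO+AB 2), and of the 41 subunit genes limma called 0 and found 0 below an unadjusted p of 0.05, against 0.0% and 2.48% of all genes. That the calls were made in DMSO mice and not in hispidulin mice was thus not shown to be a difference between the treatments. In the sham-operated mice, Hispidulin+Sham against DMSO+Sham, the same counts were 0 and 0, against 0.0% and 2.46%. The 3 mice of each group did not overlap for Psme3, which was higher (2.44%, against 2.77% of all genes), and for Psmd5, which was lower (2.44%, against 2.83%). Over both operations, hispidulin against DMSO again gave 0 and 0, against 0.0% and 2.97%, and 11 of 41 subunit genes lay above 0 (26.8%, against 48.6% of all genes). The median over the subunit genes was −0.04 and the range −0.28 to 0.17. The count and the median depended on DMSO+Sham 3: without it 21 of 41 (51.2%) lay above 0 and the median was 0.0027. In the sham-operated mice alone the median went from −0.05 to 0.02 without that mouse.

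No partner gene of the proteasome passed. Of 12 assembly factors and partners, 5 genes that control proteasome transcription, 6 ubiquitin and ubiquitin-activating genes and 11 interferon and class I genes, limma called 0 in any of the 7 comparisons, and in the comparison of 6 AB with 6 Sham mice 2 of them, Pomp and Akirin2, had an unadjusted p under 0.05, where 7.39% of all genes were called and 23.3% had such a p. Pomp, the chaperone of the core, was at 125 ± 10.3 (SD, n = 3) and 127 ± 5.56 FPKM in the Sham mice with DMSO and hispidulin, and at 147 ± 22.7 and 143 ± 4.71 FPKM in the banded ones. Its log2 fold change over both treatments was 0.20 (unadjusted p = 0.024, adjusted p = 0.143, limma). The other core chaperones had log2 fold changes of −0.11 for Psmg1, −0.15 for Psmg2, 0.17 for Psmg3 and 0.21 for Psmg4. Nfe2l1, the transcription factor that raises subunit genes when the proteasome is inhibited, was at −0.06 and the related Nfe2l2 at 0.00. Of the 11 interferon and class I genes, 4 lay above 0, with a range from −0.17 to 0.30, and the log2 fold change of Tap1 was −0.03 with all mice and 0.26 without DMSO+Sham 3.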

How the data were processed

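RNA of 12 left ventricles was sequenced as single-end reads of 50 bases on a BGISEQ-500 after oligo(dT) selection. The deposited values are FPKM per gene, made by the authors and rounded to 0.01. The submitters' processing notes name HISAT2 2.0.4, Bowtie2 2.2.5, RSEM 1.2.12 and DESeq2 1.4.5 without their roles. The genome build and the strand of the libraries are not given in the sources used here, and the table has no counts, so the depth of each sample is unknown. All 12 columns were matched to samples by their labels, which give each sample its own number and do not say more on whether replicates are separate animals, so p-values measure the spread between these samples. Symbols were taken from RefSeq by NCBI Gene ID, which matched 17947 of 18079 genes (99.3%).

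FPKM were used as deposited. limma 3.58.1 (R 4.3.3) with a mean-variance trend was fitted to log2(FPKM + 1) with 1 mean per group over all 12 mice, after genes below an FPKM of 1 in 10 or more mice were left out, with two-sided tests. A fold change on this scale understates the change of low genes. Correlations used 100000 two-sided permutations (Python 3.11.15, scipy 1.17.1). The script was tested on simulated data with known changes. The genes named were the immunoproteasome genes and their standard partners, Psme1 and Psme2, each gene that passed, the 3 highest and 3 lowest fold changes in each AB comparison and in Hispidulin+AB against DMSO+AB, and the highest and lowest gene of each class by level. The subunit genes, the lists and these rules were chosen with earlier results of these data known. Motif windows came from RefSeq promoters. The values of 1 gene that the rules name are not reported here.

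Same-numbered mice of the AB and Sham groups deviated together with hispidulin (correlations of 0.15, 0.20 and 0.23), as did those of the Sham groups (0.13, 0.33 and 0.23), but not with DMSO (−0.02, −0.04 and −0.20) or between the AB groups (0.30, 0.18 and −0.18). Alternatives covered the scaling, the filter, the value added ahead of the logarithm, the trend, array weights and a replicate block. They also covered the number series in the column labels, the samples fitted and each mouse left out.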

Additional observations from a re-analysis of the deposited data

Results flagged for a closer look

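In the 6 Sham or the 6 AB mice, 10 of 82 sets of values over 41 subunit genes (12.2%, against 10.9% of the sets over all genes tested) had 1 mouse whose gap to the next, as a share of the whole range, exceeded Dixon's critical value, which chance alone exceeds in about 1 in 20 independent sets. The sets of a mouse share 1 library. DMSO+Sham 3 was that mouse for Psmb8 (a share of 0.928 at 38.3 FPKM), Psmb9 (0.847 at 19.02 FPKM), Psmd4 (0.756 at 135 FPKM), Psmc1 (0.751 at 127 FPKM), Psma7 (0.743 at 165 FPKM), Psmd2 (0.648 at 123 FPKM) and Psmc5 (0.638 at 122 FPKM). In the AB mice, DMSO+AB 2 stood apart for Psma5 (0.871 at 63.6 FPKM) and Psma4 (0.686 at 97.4 FPKM), and DMSO+AB 3 for Psmd3 (0.657 at 81.5 FPKM). All of these were the highest mouse of their set.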

How the results depend on the processing

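The 2 calls of DMSO+AB against DMSO+Sham became 1 (2.44%) without the filter, without the trend and with the replicate block. In these settings 1.98%, 4.83% and 5.49% of all genes were called. With array weights there were 3 calls (Psma5 added), which is 7.32% against 12.2% of all genes called with those weights. The 2 calls became 0 with the number series of the column labels as a covariate and 0 with only the compared samples fitted. They also became 0 without DMSO+Sham 3 and Hispidulin+AB 3, and 0 without the 3 mice of highest atrial levels. In these settings, in this order, 1.22%, 0.0943%, 2.59% and 0.174% of all genes were called. The series covariate also sets DMSO+Sham 1 aside, as this mouse is alone in its series. The settings that leave out 2 or 3 mice together were chosen after seeing the data. With 1 mouse left out the count was 0 to 2, and 0.782% to 9.02% of all genes were called. The count was 0 without DMSO+AB 2, DMSO+AB 3 or DMSO+Sham 1, where 0.895%, 1.63% and 0.782% of all genes were called. Over both treatments, the 2 calls became 5 with array weights (Psma5, Psmb10, Psmc4, Psmd14 and Psmd8), or 12.2% against 21.7% of all genes, 1 with the number series (Psmb10) and 0 without the 3 mice of highest atrial levels, where 4.69% and 0.634% of all genes were called. Within the lower and the higher number series, AB minus Sham in log2(FPKM + 1) was 0.69 and 0.36 for Psmb10 with DMSO and 0.48 and 0.45 with hispidulin, and 0.76 and 0.44 for Psmd8 with DMSO and 0.19 and 0.17 with hispidulin, from 1 or 2 mice a side. With array weights, Hispidulin+AB against Hispidulin+Sham gave 1 call, Psmb10 (2.44%, against 1.79% of all genes). The replicate block changed no call of a subunit gene in the comparisons in which same-numbered mice deviated together. Over all genes, it raised the calls of Hispidulin+AB against Hispidulin+Sham from 0 to 17.

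The log2 fold changes that turned their direction had not passed in their comparison. With array weights, DMSO+AB against DMSO+Sham gave 0.0397 for Psme2, 0.10 for Psmb8 and 0.0564 for Psmb9. Without DMSO+Sham 3 and Hispidulin+AB 3 it gave 0.27 for Psmb8 and 0.23 for Psmb9, while Psmb8 was at −0.0478 in Hispidulin+AB against Hispidulin+Sham and at 0.0419 in Hispidulin+Sham against DMSO+Sham. Psmb9 in Hispidulin+AB against DMSO+AB was at −0.0004 with median-of-ratios scaling, −0.0453 with array weights, −0.26 without those mice and −0.18 without the 3 of highest atrial levels, a setting in which Psmb3 in Hispidulin+AB against Hispidulin+Sham was at 0.0002.

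With 1 mouse left out, Psmb8 ranged from −0.60 to 0.27 in DMSO+AB against DMSO+Sham, from −0.0478 to 0.37 in Hispidulin+AB against Hispidulin+Sham, from −0.28 to 0.16 in Hispidulin+AB against DMSO+AB and from −0.83 to 0.0419 in Hispidulin+Sham against DMSO+Sham. Psmb9 ranged from −0.40 to 0.23 in DMSO+AB against DMSO+Sham and from −0.29 to 0.22 in Hispidulin+AB against DMSO+AB, and the interaction of Psmb10 from −0.25 to 0.045. The causes were not tested. With 3 mice a group and no counts, neither the depth of a library nor small differences of low genes could be resolved.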
